A study of Homo sapiens with 22 samples.

Results

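The EGFR and MET growth factor loci were taken as 8 genes, namely the receptors EGFR, ERBB2, ERBB3 and MET and the EGFR ligands AREG, EREG, HBEGF and TGFA. All deposited ChIP-seq and ATAC-seq regions that overlapped the body of one of these genes or the 50 kb on either side of it were collected, on hg19 with GENCODE gene models. The 8 genes are 8 of 20163 protein-coding genes, and their windows cover 1298.5 kb in all. Across the 22 lists, the FOXA2, JUN and FOSL1 regions in these windows merge into 149 separate places.

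EGFR and ERBB3 are cell-surface receptors that pair with each other or with ERBB2, which has no ligand of its own. AREG, EREG, HBEGF and TGFA are made as membrane-bound precursors that are cut to release a ligand for EGFR, and MET is the receptor for hepatocyte growth factor. Signals from these receptors run through the MAP kinase cascade to AP-1, the dimeric factor that JUN and FOSL1 form, while FOXA2 is a forkhead pioneer factor that can bind closed chromatin. EGFR and MET signalling is known in prostate cancer that no longer depends on the androgen receptor.

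The study asked how FOXA2 and AP-1 share chromatin in 3 prostate cancer cell lines. PC3 is a line from a bone metastasis that lacks androgen receptor activity, NCI-H660 is a neuroendocrine line, and LNCaP is a luminal, androgen-responsive line. In PC3, FOXA2 was profiled with vehicle, with 10 µM ORY-1001 for 4 h and with 0.5 µM C12 for 4 h, both inhibitors of the demethylase LSD1. JUN and FOSL1 were profiled in PC3 after control siRNA (siNC) or FOXA2 siRNA (siFOXA2), and H3K27ac and ATAC regions came from cells labelled as vehicle, although the name of the H3K27ac file reads siNC. NCI-H660 was profiled for FOXA2 with vehicle and with 10 µM ORY-1001 for 4 h, and for JUN with siNC and siFOXA2. Its H3K4me2 and ATAC lists are titled vehicle. LNCaP was profiled for JUN with siNC, with FOXA1 siRNA (siFOXA1), with stable lentiviral FOXA2 (FOXA2OE) and with the K265R mutant of FOXA2. FOXA2 was also profiled in the FOXA2OE cells. The FOXA2OE and K265R lists are titled vehicle. No LNCaP JUN list with an empty vector was present, so the FOXA2OE list is set beside cells given control siRNA. The cells of the mutant list are named as K265R in the title only, since the cell line label repeats FOXA2OE. K265R replaces a lysine of FOXA2 that the study describes as methylated. A pair of further PC3 FOXA2 ChIPs, titled vehicle, has no antibody in its labels.

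Each condition was 1 list except that pair, so differences between conditions carry no replicate error and no test. Shares of regions are given with Wilson 95% intervals, which cover counting error only, beside the same share over the whole list. List sizes ran from 1538 to 210960 regions, and read depth is not given in the lists. A region's score, read as 10 times the −log10 of the q-value, grows with depth and is not a height of binding. In the ATAC lists, the promoters of the neuroendocrine markers SYP, INSM1 and NCAM1 were accessible in both PC3 and NCI-H660, and that of CHGA in NCI-H660 only. Of the luminal markers, 3 of 4 had an accessible promoter in both lines, with KLK3 in neither. Among the markers named here, promoter accessibility therefore separated the lines at CHGA alone. No accessibility list of LNCaP was analysed here. The lists hold no measure of FOXA2 loss after siFOXA2.

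The sequences at the places that the results turn on are shown first, from the hg19 plus strand. Capitals mark the AP-1 words TGACTCA and TGAGTCA and the forkhead words TGTTTAC and TGTTTAT, searched on both strands. Distances run from the start of the canonical transcript to the centre of the region, positive along the gene. The first 3 places are at EGFR: an intron 1 place 114.0 kb past the start (chr7:55200678-55200813) where PC3 FOXA2, JUN and FOSL1 lay together, a place 22.9 kb upstream (chr7:55063651-55063916) with PC3 FOXA2 and JUN, and an intron 1 place at 108.7 kb (chr7:55195359-55195445) with FOXA2 in both PC3 and NCI-H660.
EGFR +114.0 kb: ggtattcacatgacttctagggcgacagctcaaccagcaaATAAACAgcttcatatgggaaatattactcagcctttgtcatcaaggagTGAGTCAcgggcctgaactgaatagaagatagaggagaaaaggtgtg
EGFR −22.9 kb: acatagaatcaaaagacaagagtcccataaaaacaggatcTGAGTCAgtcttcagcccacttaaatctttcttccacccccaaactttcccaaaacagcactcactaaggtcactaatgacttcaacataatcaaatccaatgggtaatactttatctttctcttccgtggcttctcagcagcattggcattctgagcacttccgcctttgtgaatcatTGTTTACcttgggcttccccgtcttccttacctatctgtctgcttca
EGFR +108.7 kb: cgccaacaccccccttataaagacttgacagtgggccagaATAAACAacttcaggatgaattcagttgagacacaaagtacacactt

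The next 4 places are at MET, EREG and ERBB2. They are MET intron 2 at 39.0 kb (chr7:116351186-116351386), with FOXA2 in both lines and JUN in PC3, MET intron 14 at 100.5 kb (chr7:116412679-116412819), with FOXA2 and JUN in PC3, EREG intron 1 at 9.6 kb (chr4:75240430-75240548), with FOXA2 and JUN in PC3, and ERBB2 intron 1 at 3.5 kb (chr17:37859710-37859815), with FOXA2 in both lines.
MET +39.0 kb: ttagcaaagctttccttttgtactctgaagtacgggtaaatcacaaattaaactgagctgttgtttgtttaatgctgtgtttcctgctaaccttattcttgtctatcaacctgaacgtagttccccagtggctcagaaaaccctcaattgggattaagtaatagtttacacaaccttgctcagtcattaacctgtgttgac
MET +100.5 kb: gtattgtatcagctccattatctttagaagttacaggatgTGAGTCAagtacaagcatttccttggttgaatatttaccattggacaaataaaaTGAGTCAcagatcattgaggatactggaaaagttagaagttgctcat
EREG +9.6 kb: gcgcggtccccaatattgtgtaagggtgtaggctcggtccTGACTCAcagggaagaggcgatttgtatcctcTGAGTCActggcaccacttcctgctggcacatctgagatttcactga
ERBB2 +3.5 kb: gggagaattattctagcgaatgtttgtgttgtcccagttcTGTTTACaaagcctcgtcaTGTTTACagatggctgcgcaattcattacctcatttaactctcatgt

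At EGFR +114.0 kb a forkhead word and an AP-1 word start 49 bases apart, and at EGFR −22.9 kb the same words start 179 bases apart. The EGFR +108.7 kb place holds a forkhead word and no AP-1 word, and the ERBB2 place holds 2 forkhead words 19 bases apart. MET +100.5 kb and EREG +9.6 kb each hold 2 AP-1 words, 54 and 32 bases apart. The MET +39.0 kb place, with the highest score in the windows in the PC3 vehicle FOXA2 list, holds none of the 4 words in the 201 bases shown. Those bases do hold 1 match, TGTTTGT, to a wider set of 8 forkhead words that was tried as an alternative.

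In the PC3 vehicle and siNC lists, EGFR, MET and EREG held most of the regions. FOXA2 regions with vehicle numbered 8 at EGFR, 6 at MET, 4 at EREG, 1 each at ERBB2, ERBB3, HBEGF and TGFA, and 0 at AREG. JUN regions with siNC numbered 9 at EGFR, 9 at MET, 4 at EREG, 2 at HBEGF, 1 each at ERBB3, AREG and TGFA, and 0 at ERBB2. FOSL1 regions with siNC numbered 3 at EGFR and 1 at ERBB2. Regions were found at 7 of 8 genes for FOXA2, against 54.1% of all protein-coding genes, at 7 of 8 for JUN, against 62.8%, and at 2 of 8 for FOSL1, against 17.4%.

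EGFR, MET and EREG stood high among genes in these PC3 lists. As many FOXA2 regions as at EGFR were found at 1.98% of all coding genes, and as many as at MET at 4.08%. Per 100 kb, EGFR held 2.73, MET 2.65 and EREG 3.24 FOXA2 regions, densities reached by 4.13%, 4.55% and 2.09% of genes. For JUN the densities were 3.08, 3.98 and 3.24 regions per 100 kb, reached by 4.89%, 1.8% and 4.38% of genes. Over the 8 windows together the density was 1.99 times that of all coding windows for FOXA2 and 2.32 times for JUN. ERBB2, ERBB3, HBEGF and TGFA, with 0.483 to 0.879 FOXA2 regions per 100 kb, had densities reached by 33.8% to 50.6% of genes. The order was not the same in the other FOXA2 ChIPs, where TGFA had 11 and 7 regions, EREG 10 and 7 and HBEGF 7 and 5, and where the HBEGF density was reached by 7.31% and 11.8% of genes. EGFR, with 20 and 17 regions, and MET, with 15 in each, had the highest numbers in those lists too, in the longest windows. Per 100 kb, EREG was highest in the first list, at 8.09 against 6.83 at EGFR and 6.63 at MET. In the second list MET was highest, at 6.63 against 5.81 at EGFR and 5.66 at EREG.

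**Figure D1:**
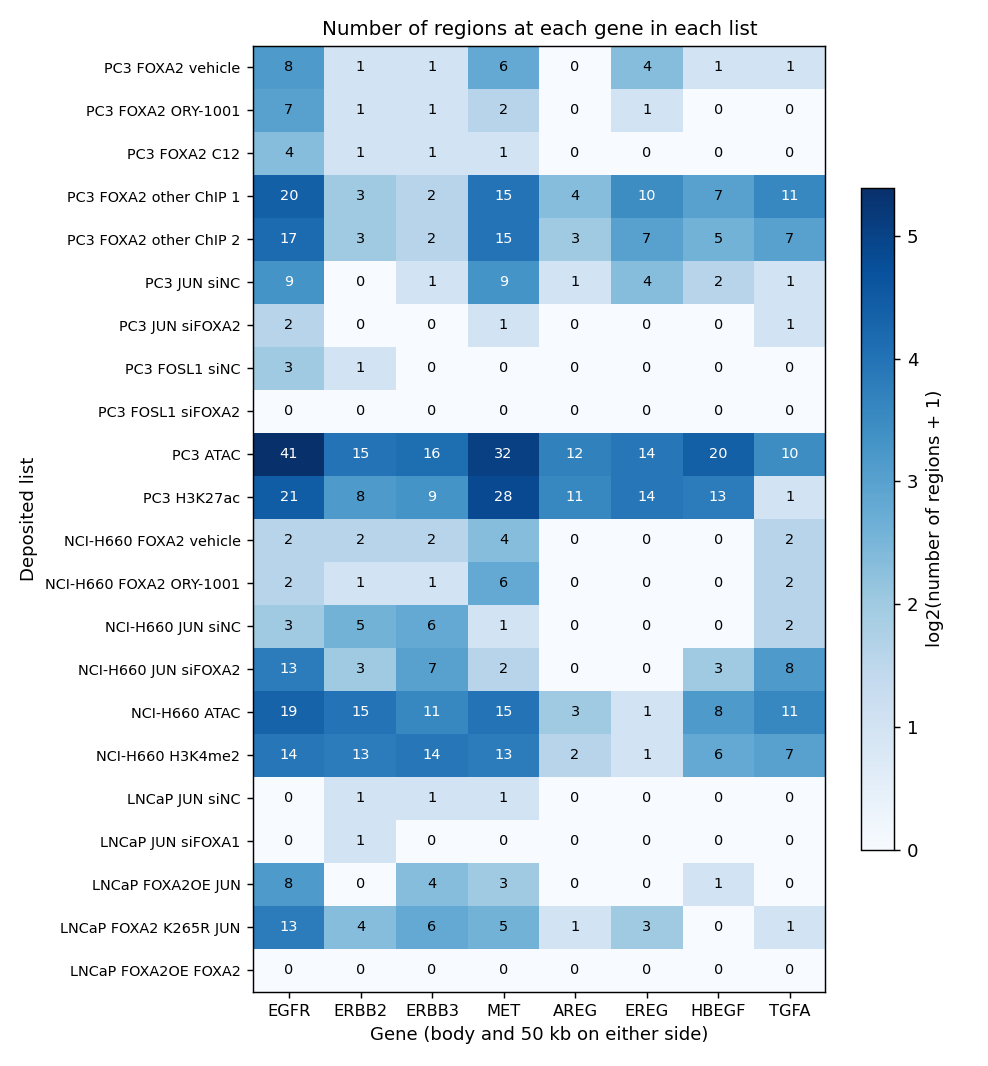
Number of regions (cell text) in each deposited list (rows) at each of the 8 genes with 50 kb on either side (columns), coloured by log2(number + 1). EGFR and MET hold 8 and 6 PC3 FOXA2 regions and 9 PC3 JUN regions each, whereas ERBB2 and ERBB3 hold 5 and 6 NCI-H660 JUN regions and AREG and EREG hold 0.

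In NCI-H660 the order of the genes was another. FOXA2 regions with vehicle numbered 4 at MET, 2 each at EGFR, ERBB2, ERBB3 and TGFA, and 0 at AREG, EREG and HBEGF. JUN regions with siNC numbered 6 at ERBB3, 5 at ERBB2, 3 at EGFR, 2 at TGFA, 1 at MET and 0 at AREG, EREG and HBEGF. Both factors were found at 5 of 8 genes, against 37.6% of coding genes for FOXA2 and 66.2% for JUN. The JUN density at ERBB3, 4.74 regions per 100 kb, was reached by 0.451% of genes, and that at ERBB2, 3.51, by 2.38%.

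Many of the regions at ERBB2 and ERBB3 belong by position to neighbouring genes, which lie close on chromosomes 17 and 12. The ERBB3 window holds 8 other coding genes and the ERBB2 window 7, whereas the EGFR, AREG and TGFA windows hold none. In NCI-H660, 4 of the 6 JUN regions at ERBB3 lay at neighbours, at the starts of PA2G4, ESYT1 and MYL6B and at a start that ESYT1 and ZC3H10 share, and 1 of 6 lay in the ERBB3 body or within 1 kb of its start. At ERBB2, 3 of 5 overlapped its body, 1 of these at the MIEN1 promoter beyond its end, and 2 lay at GRB7 and IKZF3. The region at the GRB7 promoter had the highest JUN score at ERBB2, 453. Over all 8 windows, 6 of 17 NCI-H660 JUN regions lay in a neighbouring gene, compared with 0 of 27 PC3 JUN regions and 2 of 22 PC3 FOXA2 regions.

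At EGFR in PC3, all 8 FOXA2 regions lay upstream of the gene or in its first intron, and 7 of 8 overlapped an ATAC region, all but that at −31.0 kb. Their scores with vehicle were 40 at −33.3 kb, 81 at −31.0 kb, 571 at −22.9 kb, 72 at 46.6 kb, 339 at 55.2 kb, 584 at 68.0 kb, 190 at 108.7 kb and 507 at 114.0 kb. JUN lay at 6 of these 8, all but those at −31.0 and 108.7 kb. The remaining 3 JUN regions were further along the gene, centred in introns 8, 20 and 22, with scores of 87, 316 and 92, and none of them overlapped a vehicle FOXA2 region.

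The JUN region at EGFR +114.0 kb (chr7:55200430-55200942) had the highest JUN score in the 8 windows, 1270, and ranked 221 of the 23890 regions in its list. FOXA2 scored 507 there and FOSL1 132, and all 3 regions contain the forkhead and AP-1 words shown above. FOSL1 lay with FOXA2 and JUN at 2 further EGFR places, −33.3 kb with a FOSL1 score of 38 and 46.6 kb with a score of 40. These 3 EGFR places are the only places in the 8 windows where all 3 factors overlapped. The fourth FOSL1 region, with a score of 77, lay 30.5 kb past the ERBB2 start at the promoter of the neighbouring gene MIEN1, without FOXA2 or PC3 JUN.

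**Figure D2:**
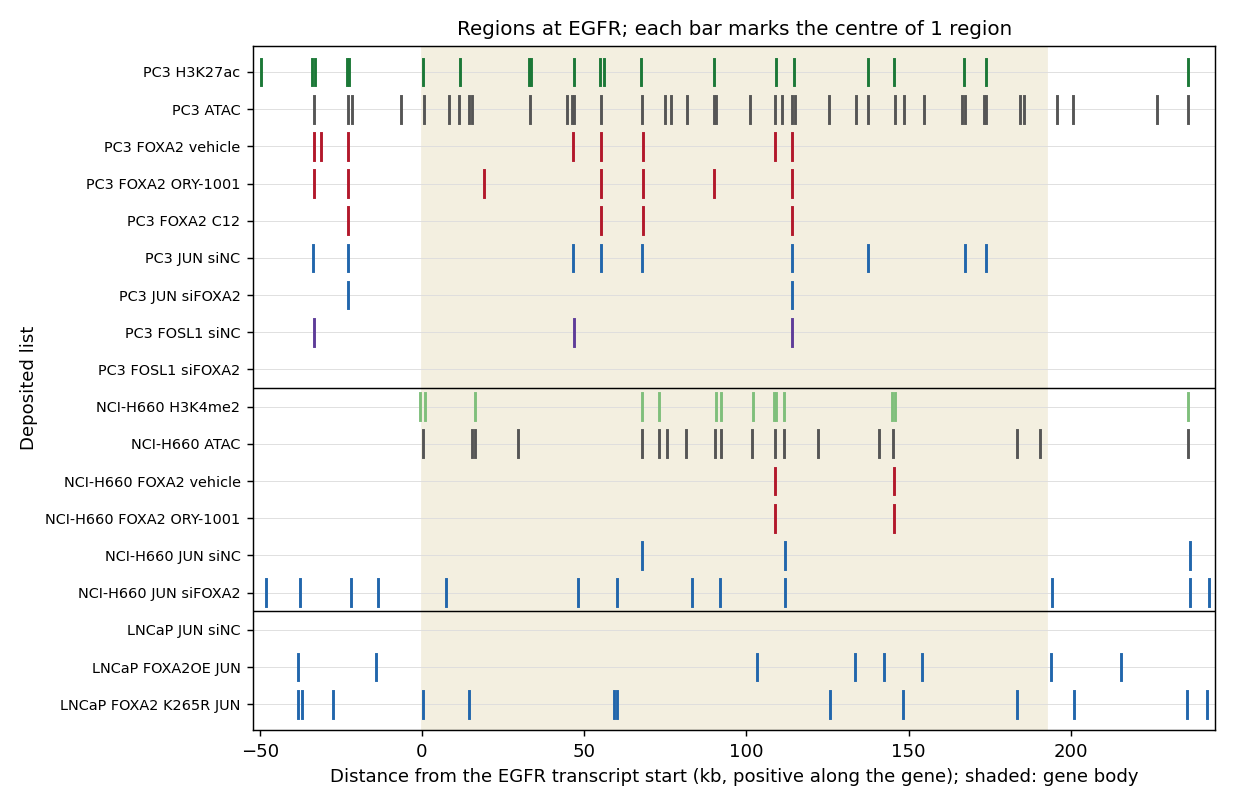
Centres of the regions in each list (rows) by distance in kb from the EGFR transcript start, with the gene body shaded and lines between cell lines. FOXA2 and JUN overlap at 6 places in PC3, 4 of them within intron 1, and of the NCI-H660 and LNCaP JUN regions only that of NCI-H660 siNC at 67.9 kb overlaps one of them.

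In NCI-H660, EGFR held FOXA2 at 108.7 kb with a score of 400 and in intron 14 at 145.6 kb with a score of 93. The first is the same place as in PC3, where its score was 190. JUN lay at 111.9 kb (chr7:55198408-55198809) with a score of 675, a place found in no PC3 list and overlapped by NCI-H660 ATAC and H3K4me2. The other NCI-H660 JUN regions were at 236.8 kb, downstream of the gene, with a score of 96, and at 67.9 kb with a score of 18, where PC3 had both FOXA2 and JUN. The 201 bases at the centre of the 111.9 kb region hold no AP-1 or forkhead word, whereas the PC3 place at 114.0 kb, further along the same intron, holds both.
NCI-H660 EGFR +111.9 kb (chr7:55198509-55198709): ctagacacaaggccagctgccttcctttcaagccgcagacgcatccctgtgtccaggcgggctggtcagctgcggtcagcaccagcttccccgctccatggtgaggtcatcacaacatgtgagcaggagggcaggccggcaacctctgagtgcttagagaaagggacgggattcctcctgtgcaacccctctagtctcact

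MET, the hepatocyte growth factor receptor, had its main FOXA2 place in intron 2 at 39.0 kb (chr7:116351037-116351534 in PC3). The FOXA2 score there was 689 in PC3, rank 1550 of 24038, and 322 in NCI-H660, rank 1966 of 11886. PC3 JUN overlapped it with a score of 184, and no NCI-H660 JUN region did. The other PC3 FOXA2 regions at MET scored 151 at 2.8 kb, 129 at 20.5 kb, 219 at 100.5 kb, 154 at 105.8 kb and 264 at 139.6 kb, the last at a start of the neighbouring gene CAPZA2. JUN lay at all of these except that at CAPZA2. NCI-H660 FOXA2 had further regions at 58.7 kb, 65.3 kb and 167.0 kb, with scores of 147, 411 and 155, and the one at 65.3 kb in intron 3 (chr7:116377361-116377647) was in no PC3 list.

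The MET promoter was a JUN place without FOXA2. Its JUN score was 259 in PC3 with siNC, 41 in NCI-H660 with siNC, 84 in LNCaP FOXA2OE and 194 in LNCaP K265R, and the LNCaP siNC and siFOXA1 lists had no region there. No FOXA2 list of the 22 had a region at this promoter, which was covered by ATAC regions in PC3 and NCI-H660.

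**Figure D3:**
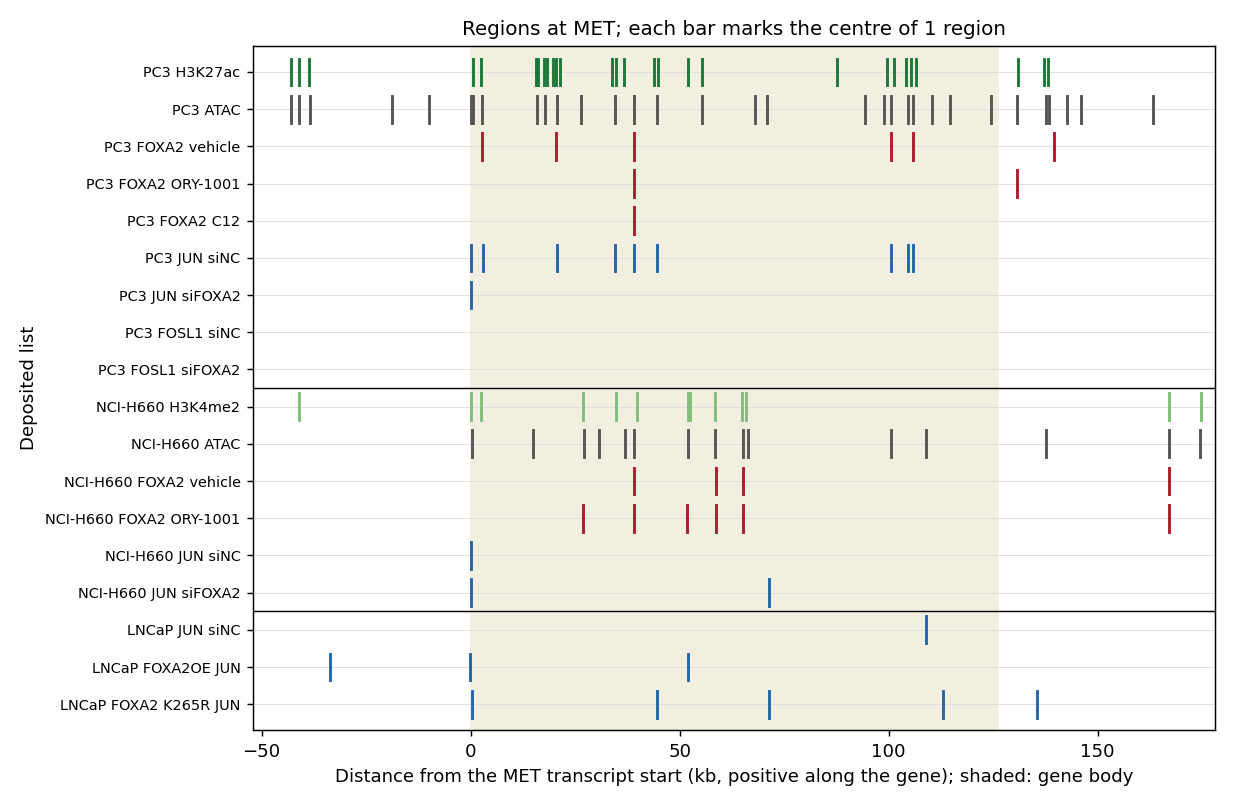
Centres of the regions in each list (rows) by distance in kb from the MET transcript start, with the gene body shaded and lines between cell lines. FOXA2 lies at 39.0 kb in both PC3 and NCI-H660 with and without inhibitor, and JUN lies at the start of the gene in 6 of the 7 JUN lists drawn, all but LNCaP siNC.

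At ERBB2, FOXA2 lay 3.5 kb past the canonical start in intron 1, near an alternative start, in both lines (chr17:37859581-37859960 in PC3). Its score was 462 in PC3 and 979 in NCI-H660, the second ranking 202 of 11886. NCI-H660 JUN overlapped it with a score of 216, and this was the only one of the 12 NCI-H660 FOXA2 regions with JUN. At ERBB3, JUN lay at the canonical promoter with scores of 354 in PC3 and 732 in NCI-H660, and it was also listed in LNCaP with siNC, with FOXA2OE at 239 and with K265R at 453. An AP-1 word lies within 100 bp of the centre of the PC3 and NCI-H660 regions. FOXA2 in the ERBB3 window lay at 46.2 kb in both lines, with scores of 205 and 227, inside an untranslated exon of ZC3H10, and in NCI-H660 also in ERBB3 intron 4 with a score of 284. The JUN region with the highest NCI-H660 score in the 8 windows, 1231, was in the ERBB3 window at the start of ESYT1.

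Of the ligands, EREG had the most regions in the PC3 vehicle FOXA2 and siNC JUN lists, and no FOXA2 or JUN region of any NCI-H660 list lay within 50 kb of it. FOXA2 scored 111 at −35.0 kb, 76 at −26.9 kb, 298 at −2.6 kb and 103 at 9.6 kb. JUN scored 180 at −44.4 kb, 70 at −34.7 kb, 161 at −2.6 kb and 675 at 9.6 kb, the last ranking 1078 of 23890. The regions at −44.4 to −26.9 kb are nearer to EPGN, another EGFR ligand gene, than to EREG. The JUN place at 9.6 kb had the pair of AP-1 words and no forkhead word, and that at −2.6 kb had a forkhead word and no AP-1 word near its centre.

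AREG lies next to EREG on chromosome 4, and the AREG and EREG windows share part of their length. PC3 JUN had 1 region at AREG, at 6.2 kb in an intron with a score of 67, and vehicle FOXA2 had none, although the other FOXA2 ChIPs had 4 and 3 there. The hg19 assembly carries a copy of AREG (AREGB, chr4:75480629-75490486) that is 99.9% identical over the aligned bases, so reads from either copy may not be placed uniquely and the AREG counts are uncertain. At HBEGF, FOXA2 with a score of 103 and JUN with a score of 231 overlapped 34.3 kb downstream, and a second JUN region lay at 28.5 kb with a score of 51. At TGFA, FOXA2 had a region in intron 1 at 19.3 kb with a vehicle score of 78 in PC3, where the other FOXA2 ChIPs scored 1817 and 1494, their highest FOXA2 scores in the 8 windows. In NCI-H660, FOXA2 had regions at TGFA −3.6 kb and 133.6 kb with scores of 169 and 50. JUN lay at −42.6 kb with a score of 191 in PC3, overlapping a NCI-H660 region with a score of 102, and NCI-H660 had a second JUN region at 149.9 kb with a score of 146.

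The chromatin lists also differed between the loci. H3K27ac regions in PC3 covered 9.63% of the EREG window, 9.46% of HBEGF, 8.85% of ERBB3, 7.3% of EGFR and 6.84% of MET, against a median of 3.63% over coding genes. By position, 8 of 9 of these regions at ERBB3 and 7 of 13 at HBEGF lay at neighbouring genes, and 12 of 14 at EREG lay between genes. At EGFR 15 of 21, and at MET 22 of 28, lay in the gene's own body or within 1 kb before its start. The TGFA window had 1 H3K27ac region that covered 0.132%, and 92.2% of coding genes had at least that cover. Accessible regions covered 3.46% of the EREG window in PC3 and 0.345% in NCI-H660, against medians of 3.48% and 3.36%. At TGFA the accessible share was 1.24% in PC3 and 4.16% in NCI-H660. H3K4me2 in NCI-H660 covered 10.3% of the ERBB3 window and 8.59% of the ERBB2 window, against a median of 3.29%, and 0.481% of the EREG window. Of these H3K4me2 regions, 12 of 14 at ERBB3 and 7 of 13 at ERBB2 lay at neighbouring genes.

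The share of FOXA2 regions with JUN was higher at these genes than over the list in PC3, and lower in NCI-H660. Of the 22 PC3 FOXA2 regions, 15 overlapped JUN, a share of 68.2% (Wilson 95% interval 47.3 to 83.6), against 44.3% of the whole list. In NCI-H660, 1 of 12 FOXA2 regions overlapped JUN, or 8.33% (1.49 to 35.4), against 36.4% of the whole list. In both lines the share of the list lay just outside the interval of the windows, and regions at 1 gene are neighbours rather than independent draws. In the other FOXA2 ChIPs the share with JUN was 26.8% of 71 regions (17.9 to 38.1) against 20.6% of the whole list, and 31% of 58 (20.6 to 43.8) against 23.6%, so that the list's share lay inside the interval.

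Accessibility at the FOXA2 regions was near that of the lists. ATAC regions overlapped 19 of 22 PC3 FOXA2 regions, 86.4% (66.7 to 95.3) against 89.3%, and 12 of 12 in NCI-H660 against 90.9%. H3K27ac overlapped 13 of the 22 in PC3, 59.1% against 58.7% of the list. Few places were common to the lines: 4 of 22 PC3 FOXA2 regions were found in NCI-H660 (18.2% against 11.1%), 4 of 27 JUN regions (14.8% against 12.8%) and 44 of 156 ATAC regions (28.2% against 21.5%). The 4 shared FOXA2 places were EGFR +108.7 kb, MET +39.0 kb, ERBB2 +3.5 kb and the ZC3H10 place in the ERBB3 window. The 4 shared JUN places were EGFR +67.9 kb, the MET and ERBB3 promoters and TGFA −42.6 kb.

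The AP-1 words TGACTCA and TGAGTCA were more frequent at the JUN regions of PC3 than at those of NCI-H660, in the windows and over the lists. No other AP-1 word was searched, so the comparison holds for these words only. Within 100 bp of the centre, 15 of 27 PC3 JUN regions held an AP-1 word, 55.6% (37.3 to 72.4) against 49.5% of the whole list, compared with 4 of 17 in NCI-H660, 23.5% (9.56 to 47.3) against 13.8%. For FOXA2 regions the share with a forkhead word was 54.5% in PC3 (12 of 22, 34.7 to 73.1) against 37.3%, and 50% in NCI-H660 (6 of 12, 25.4 to 74.6) against 43.8%. An AP-1 word was held by 5 of 22 PC3 FOXA2 regions, 22.7% against 26.4% of the whole list. All 5 overlapped JUN, as did 15 of the 22, and 0 of the 7 FOXA2 regions without JUN held one. This split by JUN was not taken over the whole list and was not tested. Of the 4 FOSL1 regions, 2 held an AP-1 word near the centre, against 35% of the whole list. A word is a description of the sequence and not a bound site, and these window shares lie within counting error of the lists' shares.

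A minority of the PC3 FOXA2 regions was listed again with the LSD1 inhibitors. With ORY-1001, 9 of 22 were kept, 40.9% (23.3 to 61.3) against 36.8% of the whole list, and with C12, 7 of 22, 31.8% (16.4 to 52.7) against 29.6%. The losses at the growth factor genes were thus near those of the list. The 2 compounds were used at different doses, and no comparison between them was made. All 7 regions kept with C12 were also kept with ORY-1001, 2 were kept with ORY-1001 alone and 13 were lost with both.

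The kept regions had the higher vehicle scores in the median, with exceptions. The median vehicle score was 462 for the regions kept with ORY-1001 and 129 for those lost, and 507 and 111 for C12. The whole list was alike: its kept regions had median vehicle scores of 283 for ORY-1001 and 353 for C12, against 150 for all vehicle regions. The weakest region kept with ORY-1001, EGFR −33.3 kb, had a vehicle score of 40, and the strongest lost with both, EREG −2.6 kb, a score of 298. EGFR kept 5 of 8 with ORY-1001 and 4 of 8 with C12, at −22.9, 55.2, 68.0 and 114.0 kb with both. At 114.0 kb the score was 507 with vehicle, 320 with ORY-1001 and 241 with C12, and at −22.9 kb it was 571, 515 and 431. MET kept its region at 39.0 kb, with scores of 689, 214 and 274, and lost the other 5 with both compounds. ERBB2 +3.5 kb was kept at 462, 306 and 213. EREG lost the places at −26.9, −2.6 and 9.6 kb with both compounds and kept that at −35.0 kb with ORY-1001 at a score of 60. The regions at HBEGF and TGFA were lost with both.

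Regions shared with NCI-H660 were kept in 3 of 4 cases with each compound, compared with 6 of 18 of the remaining regions for ORY-1001 and 4 of 18 for C12. Over the whole list the same shares were 73.6% and 32.2% for ORY-1001 and 64.9% and 25.2% for C12. The shared place that was lost is EGFR +108.7 kb. All 22 vehicle regions were found again in both other PC3 FOXA2 ChIPs, against 90.4% of the whole list, but starting from these longer lists of 77822 and 62714 regions, 15.5% and 19% of the regions in the windows were kept with ORY-1001, against 11.8% and 14.5% of the whole lists, and 9.86% and 12.1% with C12, against 8.67% and 10.7%.

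In NCI-H660, with ORY-1001 at the same dose and time, most FOXA2 regions were listed again. Of 12, 10 were kept, 83.3% (55.2 to 95.3) against 68.4% of the list, and the list with ORY-1001 had 12 regions in the windows. The score was higher with ORY-1001 at 8 of the 10 kept regions and lower at 2, while over the whole list it was higher at 3898 and lower at 4185 of 8131. It was 400 and 513 at EGFR +108.7 kb, 322 and 426 at MET +39.0 kb, and 979 and 1129 at ERBB2 +3.5 kb. The 2 lost regions were the ZC3H10 place in the ERBB3 window and one at GRB7 in the ERBB2 window, and the 2 present with ORY-1001 only were both at MET, at 26.9 kb and 51.8 kb.

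**Figure D4:**
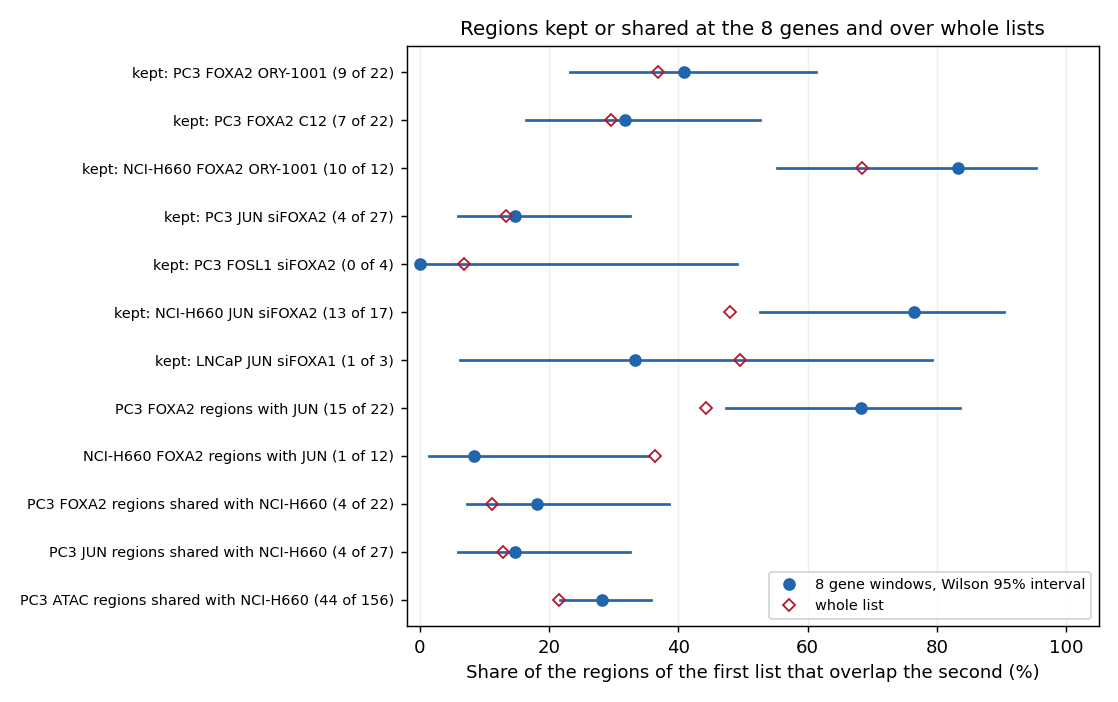
Share (%) of regions that overlap the second list, for each comparison (rows): points and bars give the 8 windows with Wilson 95% intervals, open diamonds the whole list. The whole-list share lies outside the window interval for NCI-H660 JUN kept under siFOXA2 (48% against 52.7 to 90.4%), PC3 FOXA2 with JUN and, narrowly, NCI-H660 FOXA2 with JUN and PC3 ATAC shared with NCI-H660.

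After siFOXA2, few PC3 JUN regions were left at the growth factor genes. Of 27 regions with siNC, 4 were kept, 14.8% (5.92 to 32.5) against 13.4% of the whole list, and the siFOXA2 list had no region there that the siNC list lacked. EGFR went from 9 to 2 regions, MET from 9 to 1, EREG from 4 to 0, HBEGF from 2 to 0, and ERBB3 and AREG from 1 to 0, while TGFA had 1 in both lists. The 4 kept regions had scores of 1270 and 318 at EGFR +114.0 kb, 337 and 110 at EGFR −22.9 kb, 259 and 51 at the MET promoter and 191 and 63 at TGFA −42.6 kb. EREG +9.6 kb, with the second highest JUN score in the windows, was not kept.

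Kept JUN regions were found both with and without FOXA2. At JUN regions that overlapped vehicle FOXA2, 2 of 15 were kept, both at EGFR, and at those without FOXA2, 2 of 12, at MET and TGFA. Over the whole list, 18.3% of the JUN regions with FOXA2 and 9.42% of those without were kept. The whole siFOXA2 list held 4081 regions against 23890, so the losses at these genes cannot be told apart from a smaller list. For FOSL1, 0 of 4 regions were kept (upper bound of the interval 49%), against 6.9% of the whole list, and the siFOXA2 list of 1538 regions had none in the 8 windows.

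In NCI-H660, siFOXA2 gave more JUN regions in the windows, 36 compared with 17, and 13 of the 17 were kept, 76.5% (52.7 to 90.4) against 48% of the whole list. The whole siFOXA2 list held 59452 regions against 18401, so the added and the kept regions at these genes cannot be told apart from a longer list. The numbers with siNC and siFOXA2 were 3 and 13 at EGFR, 2 and 8 at TGFA, 0 and 3 at HBEGF, 6 and 7 at ERBB3, 1 and 2 at MET, 5 and 3 at ERBB2, and 0 in both at AREG and EREG. The 23 regions without a counterpart in the siNC list had a median score of 27, none reached 100, and 7 of 23 were accessible in NCI-H660, compared with 13 of 13 of the kept ones. Over the whole list, 1224 of 50633 such regions reached 100 and 21.1% were accessible, compared with 8057 of 8819 of those shared with siNC. At EGFR the 11 such regions scored 19 to 46. With a score of at least 50 there were 14 regions in each list, and with a score of at least 100 there were 12 with siNC and 6 with siFOXA2. The whole lists had 12263 and 18720 regions at the first minimum and 7746 and 4889 at the second.

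The NCI-H660 JUN regions not kept were EGFR +67.9 kb, ERBB2 +3.5 kb, ERBB2 +70.1 kb and one 33.0 kb upstream of ERBB3, with scores of 18, 216, 116 and 257. ERBB2 +3.5 kb is the place where FOXA2 lay, so the only JUN region at FOXA2 was lost and 13 of the 16 away from FOXA2 were kept. Over the whole list the kept share was 42.4% at FOXA2 and 49.7% away from it. EGFR +111.9 kb was kept, with scores of 675 and 579, as were the ERBB3 promoter, with 732 and 631, and the MET promoter, with 41 and 70.

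**Figure D5:**
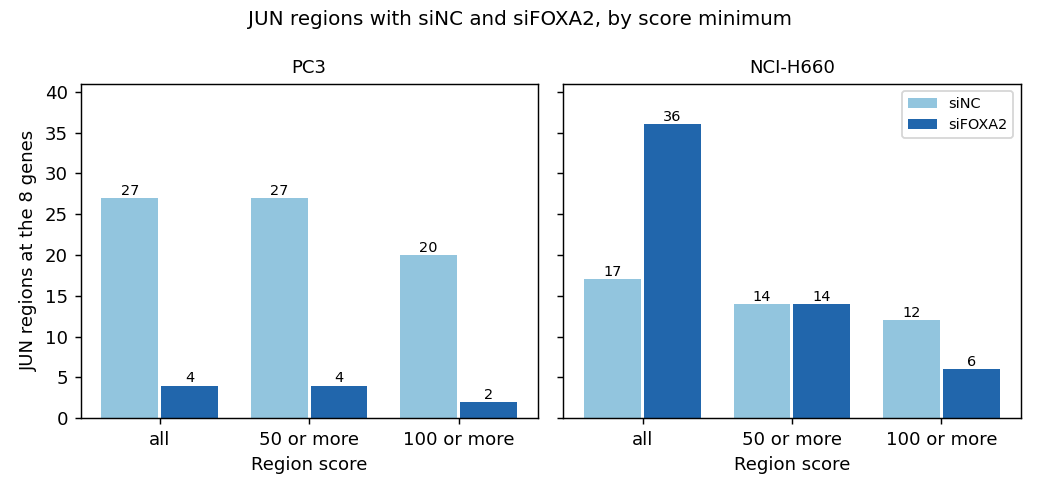
Number of JUN regions in the 8 windows (bars, from 0) with siNC and siFOXA2 in PC3 (left) and NCI-H660 (right), for all regions and for regions above 2 score minima. In PC3 the siFOXA2 bar is lower in all 3 pairs, from 4 against 27 to 2 against 20, whereas in NCI-H660 the pairs are 17 and 36, 14 and 14, and 12 and 6.

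LNCaP with siNC had 3 JUN regions at 3 of the 8 genes, at ERBB2 intron 1 6.0 kb past the start, at the ERBB3 promoter and in MET intron 17. Genes with a JUN region in that list made up 13.4% of all coding genes. After siFOXA1, 1 of 3 regions was kept, the one at ERBB2 with a score of 63, against 49.6% of the whole list. The ERBB2 place also had JUN in NCI-H660, with a score of 178.

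With FOXA2OE there were 16 JUN regions, 8 at EGFR, 4 at ERBB3, 3 at MET and 1 at HBEGF, which is 5.33 times the siNC number (1.53 to 28.6) against 9.91 times over the whole lists. They lay at 4 of 8 genes, against 79.5% of all coding genes. Only 1 of the 16, the ERBB3 promoter, was in the siNC list, against 1.84% of the whole list, and 0 of 16 overlapped a PC3 FOXA2 vehicle region, against 1.4%. The 8 EGFR regions scored 37 to 107 and none of them overlapped a PC3 or NCI-H660 JUN region. An AP-1 word lay near the centre of 1 of the 16, or 6.25%, and of 2.39% of the whole list. The FOXA2 list of the FOXA2OE cells, had none in the 8 windows. That list holds exactly 2500 regions without scores and may be shortened, and 6.03% of coding genes have a region in it.

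With K265R there were 33 JUN regions, 2.06 times the FOXA2OE number (1.1 to 4.01) against 1.98 times over the whole lists, at 7 of 8 genes against 85% of coding genes. EGFR had 13, ERBB3 6, MET 5, ERBB2 4, EREG 3, and AREG and TGFA 1 each. Of the 16 FOXA2OE regions, 5 were found with K265R, 31.2% against 37% of the list. K265R regions lay at the starts of EGFR, EREG, TGFA, MET and ERBB3, with scores of 55, 54, 63, 194 and 453, and the first 3 of these places were in no other JUN or FOXA2 list. The siNC list holds positions alone, and the lowest score was 30 in the FOXA2OE list and 23 in the K265R list. A difference in how these lists were made therefore cannot be told apart from the condition.

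Other genes of these pathways were read from lists of 11 further ligands and receptors, 10 shedding enzymes and adaptors and 11 feedback inhibitors. In PC3, FOXA2 regions lay at 8 of 11, 7 of 10 and 10 of 11 of them, against 54.1% of all coding genes. PC3 JUN regions lay at 10 of 11, 7 of 10 and 10 of 11, against 62.8%. After siFOXA2, JUN regions lay at 4 of 11, 0 of 10 and 4 of 11, against 16.6% of all coding genes. In NCI-H660, FOXA2 lay at 3 of 11, 6 of 10 and 6 of 11, against 37.6%, and JUN at 6 of 11, 7 of 10 and 9 of 11, against 66.2%. These are small numbers of genes, and no test was made. Among the inhibitors, SPRED2, which restrains the MAP kinase cascade, had 8 FOXA2 and 9 JUN regions in PC3, numbers like those at EGFR. Counts grow with gene length and no density per 100 kb was taken at SPRED2, so they do not rank it beside EGFR. ERRFI1, which binds and blocks EGFR, had 3 FOXA2 and 3 JUN regions and 1 FOSL1 region in PC3.

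Over the 22 lists, with each density taken relative to the mean of all coding windows in its list, the genes with the pattern most like EGFR were KSR2 (Pearson r = 0.97), C1orf105 (0.96) and CHCHD1 (0.96), and those most like MET were RNF144A (0.92), TGFB2 (0.88) and THSD7A (0.88). These values describe lists that share cells and depth and carry no test.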

How the data were processed

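The deposited data were 22 lists of regions in BED format from ChIP-seq and ATAC-seq of PC3, NCI-H660 and LNCaP cells. Per the labels and the study's methods, the authors aligned reads to hg19 with BWA 0.7.17-r1188, processed them with SAMtools 1.9 after FastQC 0.11.9, and called regions with MACS2 2.1.4, giving 1 list per sample. The ATAC samples' labels repeat the ChIP protocol. Of the lists, 20 hold a deposited score per region, which was read as 10 times the −log10 q from its lowest values, and 2, LNCaP JUN siNC and LNCaP FOXA2OE FOXA2, hold positions alone, so that only the coordinate columns were used. The lowest score differs between lists, at 13 in most lists, 14 in 1 of the other FOXA2 ChIPs, 23 in LNCaP K265R JUN and 30 in LNCaP FOXA2OE JUN.

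Regions were placed on GENCODE 44 models lifted to hg19. A region counted as kept or shared with an overlap of at least 1 bp. Wilson 95% intervals are for counting error only. AREG and AREGB were aligned with Biopython 1.88, and motif words were searched in the hg19 genome within 100 bp of each region's centre. Other tools were Python 3.11.15, NumPy 2.4.6, SciPy 1.17.1 and matplotlib 3.10.9. Overlap, interval and motif code was tested on simulated data. The named regions were the highest-scoring FOXA2, JUN and FOSL1 region in each window of the control lists, all regions left after siFOXA2 in PC3, all LNCaP siNC and siFOXA1 regions and all FOXA2, JUN and FOSL1 overlaps, and further regions were named after their values were seen. The members and gene lists were chosen with earlier results of these data known. Alternatives were windows of 10 kb and 100 kb, a score of at least 50, an overlap of 50% of both regions, equal numbers of top regions, omission of regions found in at least 17 of the 22 lists, the other FOXA2 ChIPs and other motif words, and score minima on the region counts were added after seeing the data. One of the marker genes read for the cell lines is not reported here.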

Additional observations from a re-analysis of the deposited data

Results flagged for a closer look

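The number of JUN regions at the 8 genes after siFOXA2 relative to siNC differed in direction between PC3 and NCI-H660. The log2 ratio was −2.75 in PC3 (4 against 27 regions) and 1.08 in NCI-H660 (36 against 17), a difference of 3.83 on the log2 scale, and over the whole lists the ratios were −2.55 and 1.69. This came to attention because the 2 lines moved in opposite directions, and with 1 list per condition the difference was not tested. For regions with a score of at least 100 the ratio was −3.32 in PC3 and −1.0 in NCI-H660, and over the whole lists −3.16 and −0.66. The median score of the NCI-H660 regions without a siNC counterpart was 27 in the windows and 35 over the whole list, where read depth is not given, and the part of depth in the result was not tested.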

How the results depend on the processing

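Of 118 alternative values for 27 results, 98 stayed within the counting interval of the reported value, or within 1.5 times for a count. Starting from the first and second of the other FOXA2 ChIPs, the kept share was 15.5% and 19% for ORY-1001 and 9.86% and 12.1% for C12, the share of FOXA2 regions with JUN 26.8% and 31%, and the accessible share 59.2% and 63.8%. With equal numbers of top regions, the kept share was 75% for C12 (6 of 8) and 33.3% for PC3 JUN under siFOXA2 (2 of 6), the shared ATAC share 41.2%, and the accessible share 36.4% in PC3 and 16.7% in NCI-H660. Requiring 50% of both regions to overlap, the shared ATAC share was 15.4% and the accessible share 59.1% in PC3 and 41.7% in NCI-H660. With the 8 forkhead words the share of FOXA2 regions with a word was 86.4% in PC3 and 83.3% in NCI-H660. The log2 ratio of JUN regions under siFOXA2 in NCI-H660 was 0.00 with a score of at least 50 and −1.0 with at least 100, against 1.08. Leaving out either other FOXA2 ChIP left the share found again at 100%. Causes of these shifts were not tested. Score alternatives were not run for the LNCaP siNC list, which holds no score. No paired analysis was possible because the titles carry no replicate numbers and each condition had 1 list. Read depth is not given, so it limits every comparison of list sizes.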

Other observations

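Among the further pathway genes, NRG1 and ERBB4, a ligand of ERBB3 and ERBB4 and the receptor ERBB4 itself, were occupied in both lines. FOXA2 had 7 regions at NRG1 in PC3 and 5 in NCI-H660, and 10 and 5 at ERBB4. Such counts grow with the length of the gene, and no density per 100 kb was taken for these genes, so the counts do not rank them beside EGFR or MET. At STAT3, a factor that acts below these receptors, the PC3 ATAC list had 0 regions within 50 kb, although 99.1% of coding genes had at least 1. The PC3 FOXA2, JUN and FOSL1 lists also had 0. NCI-H660 had 11 ATAC and 3 JUN regions there, and 95.9% of coding genes had an ATAC region in that line. The lists give no copy number, so a missing sequence and closed chromatin cannot be told apart, and whether PC3 holds this locus was not tested.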
